A study of Mus musculus with 6 samples.

Results

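The 34 genes described here carry glucose from the plasma membrane to lactate, to the mitochondrial pyruvate dehydrogenase complex or into the pentose phosphate pathway. They were chosen by name from the 24011 genes of the table, by no rule on their values. Earlier results of these data were known when they were chosen. Among them were 2 glucose transporters, 11 genes of upper glycolysis and 7 of lower glycolysis. Another 4 were of lactate handling, 5 of pyruvate dehydrogenase and its kinases and 5 of the pentose phosphate pathway. All 34 were found, and all 34 had at least 1 FPKM (fragments mapped to a transcript, divided by its length in kilobases and by the depth of the library) in 2 or more libraries.

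Total RNA was sequenced from T cells of C57BL/6 mice, either wild type (WT) or YAP cKO, which carry YAP flox/flox alleles and CD4-Cre+, a Cre recombinase under the CD4 promoter that acts in the T lineage as a whole and not in regulatory T cells alone. YAP, the effector of Hippo signalling, has no DNA-binding domain of its own and activates transcription with TEAD factors. Lymph nodes and spleens gave the 3 sorted populations: naive CD4 T cells (CD4+, CD62L+, CD25-), freshly sorted natural regulatory T cells (fresh nTreg, CD4+, CD62L+/-, CD25HIGH), and such nTregs cultured on coated anti-CD3 (2 µg/ml) with anti-CD28 in solution (2 µg/ml) and 100 U/ml of IL-2 (stimulated nTreg). A passage of the labels gives 24 h for that culture and another gives 48 h. The labels name no added agent for the naive and fresh cells, give no age, and do not say how many mice stand behind a library. Each of the 6 groups had 1 library, so a difference between genotypes within a population carries no test.

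Resting naive T cells draw little glucose and oxidise much of the pyruvate they make. On activation T cells take up more glucose, raise glycolysis and release lactate, a switch driven in large part by MYC, by mTOR signalling and by the hypoxia-inducible factor HIF1A, whereas regulatory T cells are known to depend on glycolysis less than effector T cells do. Pyruvate dehydrogenase kinases close the mitochondrial route for pyruvate, and the pentose phosphate pathway branches off glycolysis to make NADPH and ribose.

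Between 10210 and 10893 genes per library had at least 1 FPKM, and 5 FPKM on a transcript of 2 kb correspond to an estimated 74.9 to 97.0 fragments. The labelled cell types were checked against their markers. The summed Treg list (6 genes, Foxp3 and Il2ra among them) stood at 85.6 and 82.7 FPKM in naive cells and at 1052 to 1242 in the 4 nTreg libraries, and the naive list (6 genes) fell from 1436 and 1500 FPKM to 788 and 712 in fresh and 482 and 373 in stimulated nTregs. Yap1, the targeted gene, was listed at 0 in the naive and fresh libraries and at 0.169 (WT) and 0.235 FPKM (cKO) in the stimulated ones, so it gave no check of the genotype labels. The FPKM of all genes summed to 968967 (WT) and 962865 (cKO) for naive cells, to 837179 and 843887 for fresh nTregs and to 534274 and 595524 for stimulated ones, and the share held by protein-coding transcripts rose from between 60.5% and 61.3% in the first 4 libraries to 80.8% and 79.5% in the stimulated ones. Levels compared across populations therefore depend on how libraries are scaled, and the values below are given on the deposited scale unless another is named. In each series of 6 values the order is naive, fresh and stimulated, with WT before cKO.

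**Figure D1:**
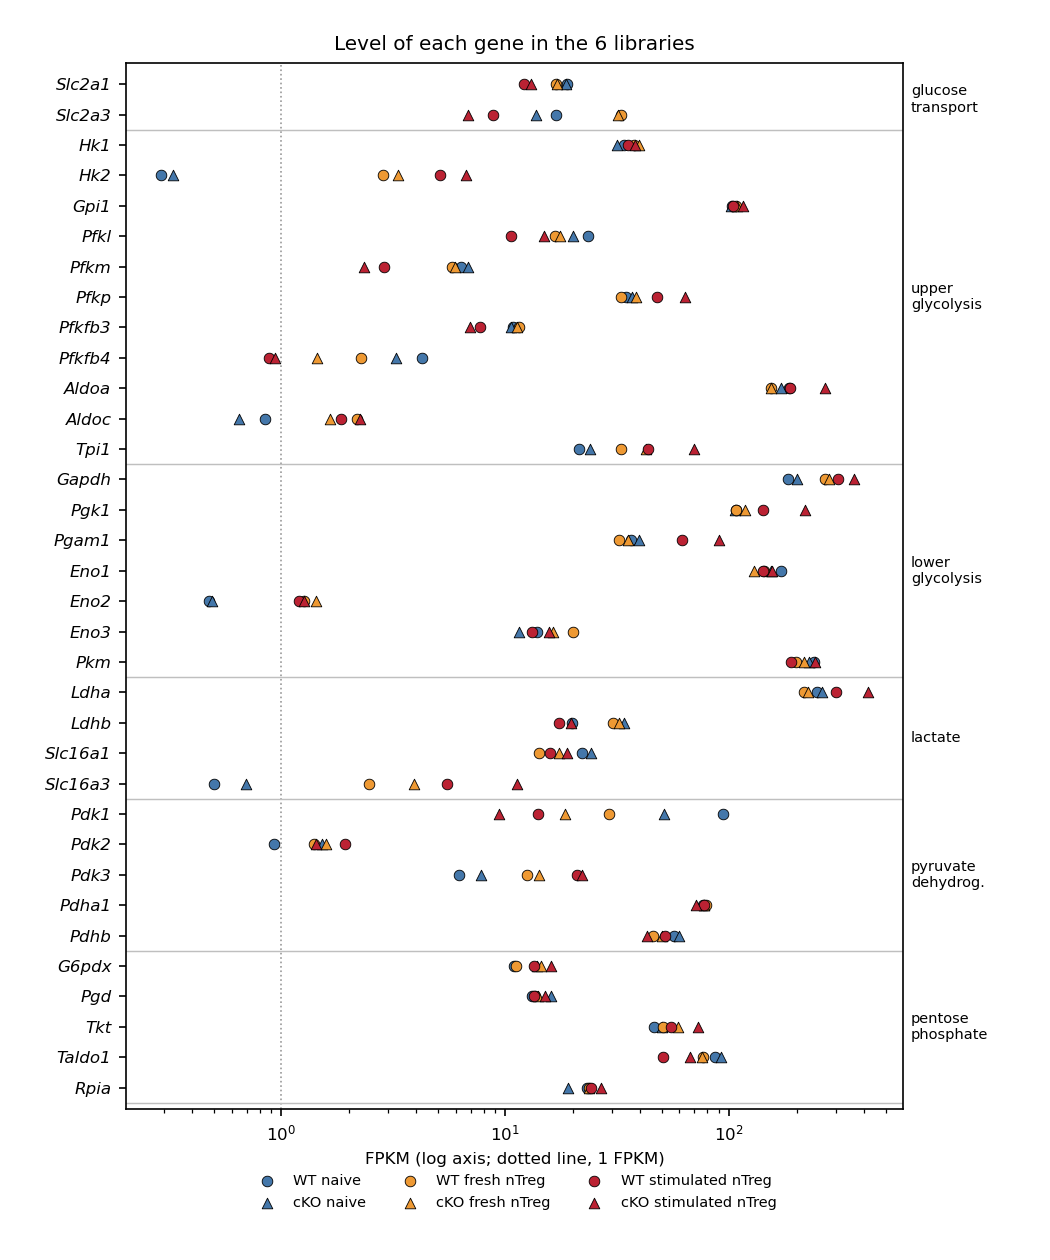
Level of each of the 34 genes in the 6 libraries, in FPKM on a log axis, grouped by role; circles are WT, triangles cKO, and each point is 1 library. Ldha reaches 416 FPKM in the cKO stimulated library, and Hk2 and Slc16a3 stand below the dotted line at 1 FPKM in both naive libraries.

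The levels spanned a wide range. Summed over the 34 genes the libraries held 1915, 1884, 1833, 1896, 1982 and 2503 FPKM. On this deposited scale only the cKO stimulated library stood apart. For equal FPKM sums the stimulated libraries are divided by 0.693 (WT) and 0.773 (cKO) and the others by 1.09 to 1.26. That raises both stimulated sums relative to the rest. Ldha (216 to 416 FPKM), Gapdh (184 to 361), Pkm (189 to 242), Aldoa (154 to 268), Eno1 (129 to 171), Pgk1 (106 to 219) and Gpi1 (102 to 115) were the most abundant. Each of these 7 has near copies elsewhere in the genome, defined as annotated transcripts of other loci at least 90% identical over at least 50% of the length: 151 for Gapdh, 147 of them pseudogenes, then 9 for Ldha, 6 for Eno1, 5 each for Aldoa and Pkm, 2 for Pgk1 and 1 for Gpi1. Ldhb, Pdhb, G6pdx and Taldo1 have 1 each, the copy of G6pdx being the gene G6pd2, and the other 23 members have none. How fragments were shared with these copies is not recorded, so the levels of these 11 genes are uncertain. Members on which the results turn lie, in RefSeq coordinates of GRCm38.p6 (mm10), on chromosome 19 from 41911871 to 41918665 (Pgam1), chromosome 11 from 120948484 to 120959000 (Slc16a3), chromosome 6 from 82725025 to 82774454 (Hk2) and from 122727809 to 122802363 (Slc2a3), chromosome 2 from 71873215 to 71903858 (Pdk1) and chromosome X from 93764616 to 93832150 (Pdk3), and each value is for the whole gene, its transcripts summed. At the lower end of the range, Hk2 rested on about 12 and 16 fragments in naive cells, Slc16a3 on 8 and 14, Aldoc on 9 to 33, Eno2 on 10 to 34 and Pdk2 on 15 to 30 across the libraries.

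Stimulated nTregs were compared with fresh nTregs to see how the pathway differed after culture with anti-CD3, anti-CD28 and IL-2. No nTreg library was cultured without anti-CD3. Effects of receptor stimulation, IL-2 and the culture itself therefore cannot be told apart, and stimulation here stands for all of them. In upper glycolysis, lactate handling and pyruvate dehydrogenase control some genes rose and others fell. Pgam1, Slc16a3, Hk2, Ldha, Pdk3, Pgk1, Pfkp, Tpi1, Aldoa and Gapdh were higher after stimulation, while Slc2a3, Pdk1, Pfkm, Ldhb, Pfkfb3, Pfkfb4, Slc2a1 and Taldo1 were lower. With an additive limma fit of population and genotype over 11224 genes (Benjamini-Hochberg adjusted p under 0.05), 10 of 34 members (29.4%) were called higher and 8 of 34 (23.5%) lower. Its p-values rest on how unevenly the genotype difference ran across the populations, moderated over all genes fitted, and not on spread between mice. Of all genes tested, 22.5% were called higher and 27.3% lower, and the median difference of log2(FPKM + 1) was 0.05 over the members and -0.05 over all genes, so the group as a whole lay close to the background. At an unadjusted p under 0.05 there were 19 members (55.9%, background 56.6%), and 20 of 34 differences were above 0 (background 46.7%). Across both genotypes the 2 stimulated libraries lay above both fresh ones for 11 members (background 33.8%) and below them for 11 (background 40.1%).

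Both glucose transporters fell on the deposited scale. Slc2a3, which encodes the high-affinity transporter GLUT3, stood at 16.8, 13.7, 32.8, 32.0, 8.80 and 6.82 FPKM. Both fresh libraries were high, both stimulated libraries were the lowest, and the fall from fresh to stimulated was 3.82-fold (log2 difference -1.93, SE 0.11, adjusted p = 0.000134). Slc2a1, which encodes GLUT1, the transporter usually linked to T cell activation, stood at 18.8, 18.8, 16.9, 17.0, 12.2 and 13.0 FPKM. It fell by 0.40 on the log2 scale (SE 0.09, adjusted p = 0.0120), but with every library scaled to the same FPKM sum it was higher by 0.13 (adjusted p = 0.270), so its direction depends on the scaling. Slc2a3 held 47.2% and 42.2% of the summed FPKM of the pair in the naive libraries. In the fresh ones it held 66.0% and 65.3%, and in the stimulated ones 42.0% and 34.5%. No scaling of libraries can alter these shares.

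In upper glycolysis the isozyme genes of a step did not all pass the test. Hk2, the inducible hexokinase, stood at 0.291, 0.328, 2.85, 3.31, 5.09 and 6.69 FPKM and rose with stimulation (0.75, SE 0.14, adjusted p = 0.00725). Hk1, the constitutive hexokinase, stood between 31.7 and 39.6 FPKM in all 6 libraries and was not called in any contrast. Hk2 made up 0.848% and 1.03% of the FPKM of the pair in the naive libraries, 7.09% and 7.72% in the fresh ones and 12.6% and 15.03% in the stimulated ones, so Hk1 remained the larger share throughout.

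Phosphofructokinase commits sugar to glycolysis and has liver, muscle and platelet forms. The platelet form Pfkp stood at 34.4, 37.0, 33.0, 38.4, 47.8 and 63.5 FPKM, with both stimulated libraries above the other 4 (0.62, SE 0.10, adjusted p = 0.00351). The muscle form Pfkm stood at 6.35, 6.79, 5.79, 5.97, 2.89 and 2.33 FPKM, with both stimulated libraries below the other 4 (-0.94, SE 0.13, adjusted p = 0.00250). The liver form Pfkl, at 23.4, 20.1, 16.6, 17.5, 10.6 and 14.9 FPKM, did not pass the test (-0.41, adjusted p = 0.0751). Pfkp thus went from 53.7% to 62.0% of the summed FPKM of the enzyme in the naive and fresh libraries to 78.0% and 78.7% in the stimulated ones. Pfkfb3 and Pfkfb4, which make the sugar bisphosphate that activates phosphofructokinase, fell: Pfkfb3 from 11.6 and 11.3 to 7.69 and 6.98 FPKM (-0.58, SE 0.10, adjusted p = 0.00517) and Pfkfb4 from 2.28 and 1.45 to 0.881 and 0.940 (-0.57, SE 0.16, adjusted p = 0.0311). Neither was called with equal FPKM sums (-0.06 and -0.26, adjusted p = 0.686 and 0.196).

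Among the remaining upper steps, Tpi1 (triose phosphate isomerase) stood at 21.4, 23.9, 32.9, 42.5, 43.6 and 69.6 FPKM and rose with stimulation (0.55, SE 0.13, adjusted p = 0.0152), its WT stimulated library lying just above the cKO fresh one. The main aldolase gene Aldoa, at 185, 171, 155, 154, 187 and 268 FPKM, was called higher (0.53, SE 0.16, adjusted p = 0.0314), though its WT stimulated library was close to the WT naive one. Gpi1, which isomerises glucose phosphate, stood between 102 and 115 FPKM in all libraries and did not pass the test (0.02), nor did the brain-type aldolase gene Aldoc (0.06).

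In lower glycolysis 3 of 7 members rose and none fell, where 22.5% of all genes tested rose and 27.3% fell. Pgam1, the phosphoglycerate mutase gene, had, with Slc16a3, the largest difference of the 34 upward, at 36.3, 39.6, 32.3, 35.3, 61.6 and 89.9 FPKM: both stimulated libraries lay above the other 4, 2.17-fold over fresh (1.12, SE 0.12, adjusted p = 0.000982). Pgk1, the phosphoglycerate kinase gene that yields the first ATP of the pathway, stood at 107, 106, 107, 118, 141 and 219 FPKM (0.64, SE 0.15, adjusted p = 0.0163). Gapdh, often taken as a constant reference gene, stood at 184, 200, 267, 280, 307 and 361 FPKM and rose by 0.28 (SE 0.08, adjusted p = 0.0286). The enolase genes Eno1 (0.12), Eno2 (-0.07) and Eno3 (-0.31) and the pyruvate kinase gene Pkm (0.04) did not pass the test. Eno3 stood at 13.9, 11.5, 20.1, 16.3, 13.2 and 15.7 FPKM. Of the 2 Pkm transcripts in the table, the M2 form (NM_011099) held 91.9% to 95.3% of the Pkm FPKM and the M1 form (NM_001253883) 4.75% to 8.10%, with no library outside that range.

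Lactate genes also split. Ldha encodes the dehydrogenase subunit that favours lactate production, and its 248, 260, 216, 225, 300 and 416 FPKM put both stimulated libraries above the other 4 (0.68, SE 0.12, adjusted p = 0.00554). Ldhb, the subunit that favours the reverse reaction, fell from 30.3 and 32.1 in fresh to 17.4 and 19.7 FPKM in stimulated nTregs (-0.72, SE 0.16, adjusted p = 0.0134), and was not called with equal FPKM sums (-0.17, adjusted p = 0.407). Slc16a3, which encodes the lactate exporter MCT4, stood at 0.502, 0.693, 2.47, 3.92, 5.49 and 11.2 FPKM, and the 3 populations did not overlap (1.11, SE 0.20, adjusted p = 0.00554). Slc16a1, which encodes the bidirectional carrier MCT1, did not pass the test (0.12) at 14.2, 17.4, 15.8 and 18.8 FPKM in the 4 nTreg libraries. Slc16a3 held 2.23% and 2.78% of the FPKM of these carriers in the naive libraries, 14.8% and 18.3% in fresh ones and 25.8% and 37.4% in stimulated ones.

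The pyruvate dehydrogenase kinases exchanged places. Pdk1 stood at 94.2, 51.1, 29.1, 18.5, 14.0 and 9.33 FPKM, falling at each step from naive to fresh to stimulated with no overlap between populations (stimulated against fresh -0.96, SE 0.10, adjusted p = 0.000981). Pdk3 went the other way, at 6.23, 7.79, 12.5, 14.1, 21.0 and 22.0 FPKM, again with no overlap (0.66, SE 0.10, adjusted p = 0.00340). Among the 3 kinase genes Pdk1 held 92.9% and 84.6% of the FPKM in the naive libraries, 67.8% and 54.2% in the fresh ones and 37.9% and 28.5% in the stimulated ones, while Pdk3 held 6.15%, 12.9%, 29.0%, 41.2%, 56.9% and 67.1%. Summed, these kinase genes stood at 101, 60.4, 43.0, 34.2, 36.9 and 32.7 FPKM on the deposited scale. Most of the fall thus lay between naive cells and fresh nTregs. For equal FPKM sums each fresh library is divided by 1.09 and the stimulated ones by 0.693 (WT) and 0.773 (cKO). The direction of the smaller step from fresh to stimulated therefore depends on the scaling. Pdha1 (71.4 to 78.6 FPKM) and Pdhb (42.8 to 59.9), which encode the subunits of the enzyme these kinases switch off, did not pass the test in any contrast, nor did Pdk2 (0.928 to 1.92).

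**Figure D2:**
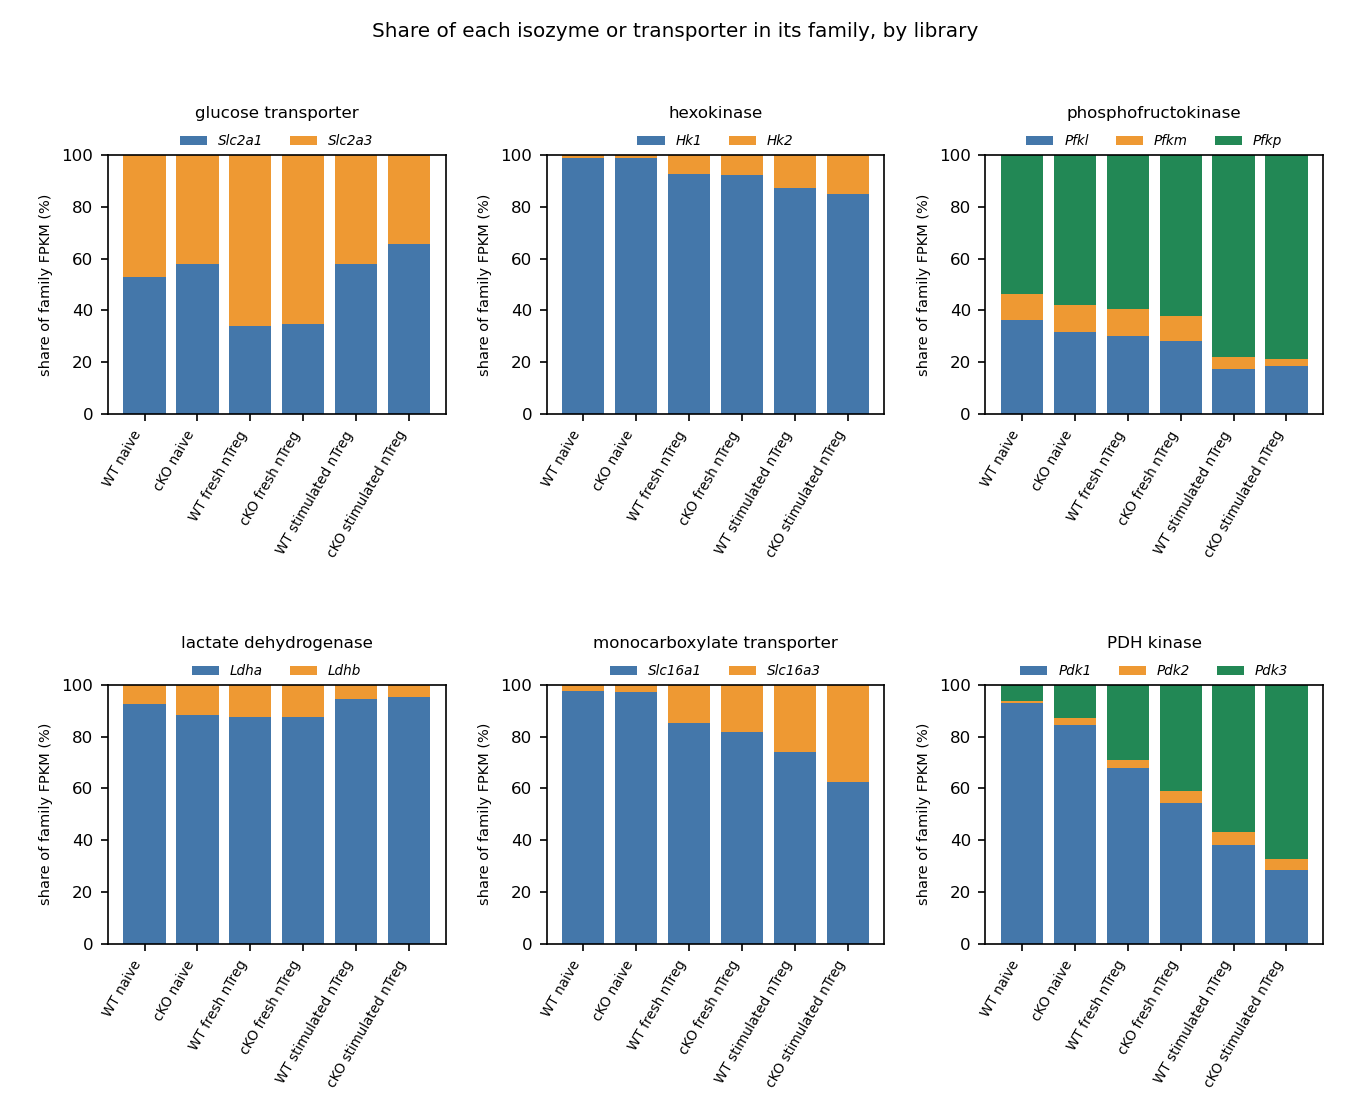
Share of the summed FPKM that each isozyme or transporter gene held in its family, in percent, for each of the 6 libraries; only the member genes of each family are counted. The share of Pdk3 rises from 6.15% in WT naive to 67.1% in cKO stimulated cells, and that of Pfkp reaches 78.0% and 78.7% in the stimulated libraries.

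In the pentose phosphate pathway only Taldo1, the transaldolase gene, was called: it stood at 86.4, 92.2, 76.4, 75.4, 50.8 and 66.7 FPKM and fell by 0.38 (SE 0.11, adjusted p = 0.0320), a direction that turned to 0.19 (adjusted p = 0.111) with equal FPKM sums. The others differed by 0.20 for G6pdx, which makes the first NADPH of the pathway, 0.04 for Pgd, which makes the second, 0.21 for the transketolase gene Tkt and 0.10 for Rpia, and none of them passed the test.

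The stimulation calls differed in how far they rested on 1 library. Pgam1, Slc16a3, Pdk3, Pfkp, Pdk1, Pfkm and Slc2a3 kept their calls with each of the 6 libraries left out in turn. The other 11 lost theirs without 1 or both fresh libraries, but kept their direction with each library left out. The log2 difference then ran from 0.22 to 0.35 for Gapdh and from -0.62 to -0.53 for Pfkfb3. Over all genes, too, fewer were called higher and fewer lower with any library left out. Gapdh also lost its call without either naive library (adjusted p = 0.0659 and 0.0661), and Pfkfb4 and Taldo1 without WT stimulated (0.166 and 0.0793). With equal FPKM sums 22 members were called higher and 3 lower, Slc2a3, Pdk1 and Pfkm, against a median shift of all genes of 0.47, and among all genes called the share called higher went from 45.2% to 86.8%. Genes of the cell cycle moved with this contrast: 17 of 18 proliferation genes were called higher (median 1.65), and their part in these results was not tested. In bulk RNA, fewer cells of a type and less RNA per cell cannot be told apart.

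**Figure D3:**
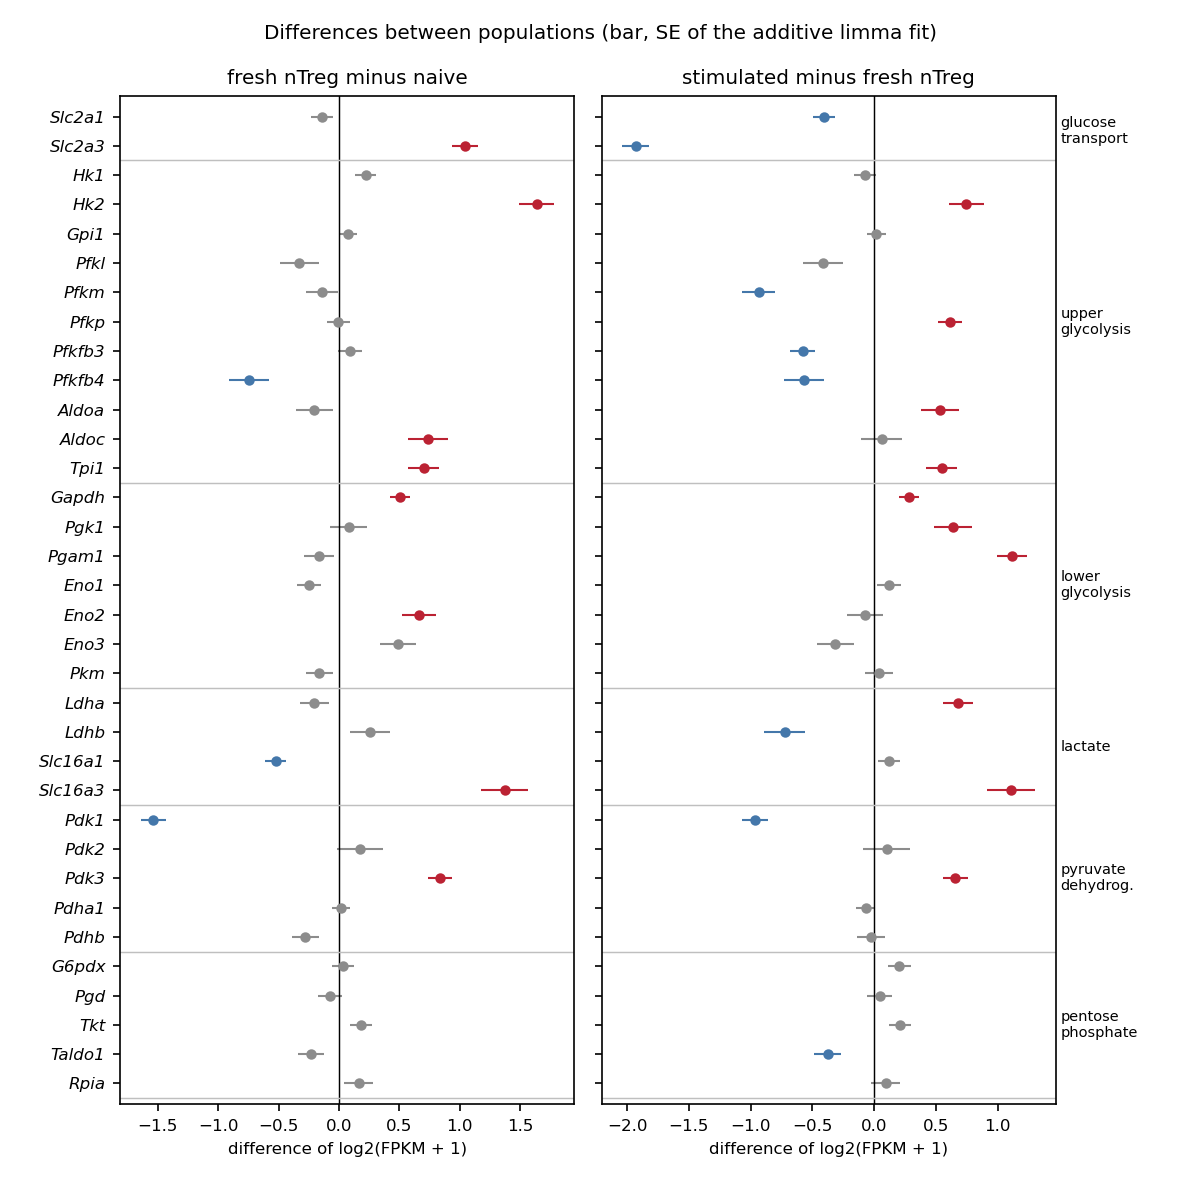
Differences of log2(FPKM + 1) between populations for the 34 genes, fresh nTreg minus naive (left) and stimulated minus fresh nTreg (right), with the SE of the limma fit over 6 libraries as bars; red was called higher, blue lower and grey not called. Hk2, Slc16a3 and Pdk3 lie to the right and Pdk1 to the left in both panels, while Slc2a3 changes side.

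Fresh nTregs were compared with naive CD4 T cells to see how the pathway differed before any culture. Hk2, Slc16a3, Slc2a3, Pdk3, Aldoc, Tpi1, Eno2 and Gapdh were higher in fresh nTregs, and Pdk1, Pfkfb4 and Slc16a1 were lower. That is 8 of 34 members called higher (23.5%, background 16.5%) and 3 called lower (8.82%, background 14.7%), with a median of 0.06 over the members and -0.02 over all genes. At an unadjusted p under 0.05 there were 14 members (41.2%, background 43.6%), and 19 of 34 differences were above 0 (background 47.7%). The libraries of the populations did not overlap for 16 members higher in fresh nTregs (background 33.2%) and 13 lower (background 37.7%).

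The FPKM of Hk2 in fresh nTregs was 9.82 times that in naive cells for WT and 10.1 times for cKO, and 3.11-fold on the log2(FPKM + 1) scale (1.64, SE 0.14, adjusted p = 0.000697). Slc16a3 (1.37, SE 0.20, adjusted p = 0.00439), Slc2a3 (1.04, SE 0.11, adjusted p = 0.00131) and Pdk3 (0.84, SE 0.10, adjusted p = 0.00247) were higher in both fresh libraries than in both naive ones. Pdk1 had the largest fall, 2.90-fold (-1.54, SE 0.10, adjusted p = 0.000297). These 5 genes kept their calls with every library left out and under every alternative scaling, pseudocount and filter tried.

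Smaller differences were found at other steps. Gapdh (0.51, SE 0.08, adjusted p = 0.00633) and Tpi1 (0.70, SE 0.13, adjusted p = 0.0103) were higher, as were the low-level isozyme genes Aldoc, at 0.846, 0.645, 2.18 and 1.65 FPKM in naive and fresh cells (0.74, SE 0.17, adjusted p = 0.0212), and Eno2, at 0.474, 0.490, 1.27 and 1.43 (0.66, SE 0.14, adjusted p = 0.0181). Slc16a1 fell from 22.0 and 24.2 to 14.2 and 17.4 FPKM (-0.52, SE 0.09, adjusted p = 0.00805), and Pfkfb4 from 4.26 and 3.26 to 2.28 and 1.45 (-0.74, SE 0.16, adjusted p = 0.0200). These 6 each lost the call with 1 or more of the naive or fresh libraries left out, at a largest adjusted p between 0.0702 (Tpi1) and 0.185 (Aldoc and Pfkfb4). Fewer members were called when a naive or fresh library was left out, and more without either stimulated library. The counts over all genes also ran both below and above those of the full fit when single libraries were left out. None of the 5 pentose phosphate genes was called in this contrast.

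Hk2, Slc16a3, Pdk3, Tpi1 and Gapdh were called higher and Pdk1 and Pfkfb4 lower in both contrasts, which share the fresh libraries. Slc2a3 was called in opposite directions, higher in fresh nTregs than in naive cells and lower after culture. B cell markers moved with the fresh nTreg libraries: the list of 7 genes summed to 7.03 and 6.87 FPKM for naive cells, to 46.7 and 39.1 for fresh and to 11.2 and 10.7 for stimulated nTregs, mostly from Cd74 and Cd79b, while Ms4a1 and Pax5 stayed below 1 FPKM in every library. Their part in the results was not tested. The erythroid and platelet markers measured were all below 1 FPKM in every library, and the myeloid list summed to 1.26 to 5.06 FPKM.

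Promoters were read for the members to see which letters those that moved share. The RefSeq windows (GRCm38.p6) run from 250 bases before to 50 after an annotated start and were present for all members but Slc2a3 (33 of 34 genes, 48 windows). The core of the hypoxia response element, ACGTG, searched on both strands, was in 21 of the 48 windows (43.8%) and in 19.6% of the 32851 windows of all genes; by gene, 18 of 33 members held it in 1 or more windows, against 21.8% of 27025 genes. The E-box CACGTG, bound by MYC and its relatives, contains ACGTG on both strands and was in 5 of 48 member windows (10.4%) and 7.2% of all. By gene it was in 5 of 33 members, against 8.1% of all genes. The TEAD motif GGAATG, the letters through which YAP is brought to DNA, was in 7 of 48 (14.6%) and 14.7% of all. By gene that motif was in 6 of 33 members, against 16.6% of all genes. ACGTG or its reverse complement was present for 8 of the 10 members called higher on stimulation (Hk2, Aldoa, Gapdh, Pgk1, Pgam1, Ldha, Slc16a3 and Pdk3), for 3 of the 7 called lower that have a window (Slc2a1, Pfkm and Pfkfb3) and for 7 of the 16 not called. Such a match is a stretch of letters and not a measured site.

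The windows shown are those of the members whose stimulation call was kept with each library left out, other than Slc2a3, so that genes with and without the letters stand side by side; the first by coordinate is given where a gene has several. Where present, ACGTG or its reverse complement is in capitals, both overlapping in CACGTG. That of Pgam1 lies at chr19:41911621-41911920 on the plus strand, that of Slc16a3 at chr11:120948817-120949116 (plus), that of Pdk3 at chrX:93832101-93832400 (minus) and that of Pfkp at chr13:6648722-6649021 (minus). Of the genes that fell, the window of Pdk1 lies at chr2:71872974-71873273 (plus) and that of Pfkm at chr15:98092339-98092638 (plus), and each is written 5′ to 3′ in the direction of the gene.
Pgam1: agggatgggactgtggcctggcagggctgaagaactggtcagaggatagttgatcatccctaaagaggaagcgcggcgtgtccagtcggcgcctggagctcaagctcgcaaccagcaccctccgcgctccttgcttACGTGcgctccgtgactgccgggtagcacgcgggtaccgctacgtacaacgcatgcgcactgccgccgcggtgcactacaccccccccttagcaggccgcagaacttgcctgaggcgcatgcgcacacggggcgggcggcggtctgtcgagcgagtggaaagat
Slc16a3: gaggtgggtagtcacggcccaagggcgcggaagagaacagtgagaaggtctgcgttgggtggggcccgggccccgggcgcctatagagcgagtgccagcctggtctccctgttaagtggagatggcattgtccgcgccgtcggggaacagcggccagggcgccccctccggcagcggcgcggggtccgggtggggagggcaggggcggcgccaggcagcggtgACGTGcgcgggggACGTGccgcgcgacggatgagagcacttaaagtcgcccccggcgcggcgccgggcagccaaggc
Pdk3: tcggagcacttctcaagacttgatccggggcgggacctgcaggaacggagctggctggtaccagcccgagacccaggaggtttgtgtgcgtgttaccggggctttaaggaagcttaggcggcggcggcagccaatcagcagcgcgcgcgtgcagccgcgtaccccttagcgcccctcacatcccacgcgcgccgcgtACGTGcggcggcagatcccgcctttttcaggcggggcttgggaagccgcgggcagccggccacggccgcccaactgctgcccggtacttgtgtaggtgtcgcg
Pfkp: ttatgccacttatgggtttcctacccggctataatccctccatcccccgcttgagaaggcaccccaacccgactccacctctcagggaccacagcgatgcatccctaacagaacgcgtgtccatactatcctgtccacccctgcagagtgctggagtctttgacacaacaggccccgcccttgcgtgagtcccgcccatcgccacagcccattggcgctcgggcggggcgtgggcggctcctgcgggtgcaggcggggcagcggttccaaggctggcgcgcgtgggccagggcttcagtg
Pdk1: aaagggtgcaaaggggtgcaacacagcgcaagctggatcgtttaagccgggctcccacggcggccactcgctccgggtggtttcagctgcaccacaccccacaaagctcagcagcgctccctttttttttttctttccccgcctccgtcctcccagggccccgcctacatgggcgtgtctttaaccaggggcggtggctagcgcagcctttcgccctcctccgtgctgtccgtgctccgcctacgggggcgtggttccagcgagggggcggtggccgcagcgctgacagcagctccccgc
Pfkm: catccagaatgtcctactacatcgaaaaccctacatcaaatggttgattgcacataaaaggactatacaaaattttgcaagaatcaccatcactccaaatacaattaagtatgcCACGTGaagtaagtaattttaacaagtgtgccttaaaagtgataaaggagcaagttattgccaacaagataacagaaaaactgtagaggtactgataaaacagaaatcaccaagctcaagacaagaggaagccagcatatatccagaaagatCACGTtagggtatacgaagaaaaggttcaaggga
Of the 4 genes that rose, Pgam1 holds 1 stretch, Slc16a3 2, Pdk3 1 and Pfkp none. Of those that fell, the window shown for Pfkm holds 2, of which 1 is CACGTG, and that for Pdk1 none. The other Pfkm windows hold 1, 0 and 0 stretches, without CACGTG, and the other Pdk1 window holds 0. None says only that these letters are not in the window.

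The cKO and WT libraries were compared to see whether loss of YAP in T cells altered these genes. Across populations no member passed the test: limma called 0 of 34 in either direction, where 0.258% of all genes were called higher in cKO and 0.116% lower. At an unadjusted p under 0.05 there were 8 of 34 members (23.5%), against 12.0% of all genes, and 23 of 34 differences were above 0 (background 53.8%), with a median of 0.12. The genotype difference was above 0 in all 3 populations for 14 of 34 members (41.2%, background 19.6%) and below 0 in all 3 for 3 (8.82%, background 16.7%), namely Pdk1, Pfkfb3 and Slc2a3. With equal FPKM sums these counts were 12 and 6. The shares of all genes on that scale are not given here, and the backgrounds above hold for the deposited scale only.

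Pdk1 came nearest to the threshold. It was 51.1 against 94.2 FPKM in naive cells, 18.5 against 29.1 in fresh and 9.33 against 14.0 in stimulated nTregs, cKO before WT, so the cKO library was the lower of the pair each time, by 0.87, 0.62 and 0.54 on the log2 scale. Over the populations the difference was -0.68 (SE 0.09), and it missed the threshold with an adjusted p = 0.0544. It was called with equal FPKM sums (-0.73, adjusted p = 0.0200), with sums equal over coding transcripts (0.0174), with median-ratio scaling (0.0424), with genes at 5 FPKM or more (0.0475) and without the WT or the cKO stimulated library (0.0199 and 0.0185). Under the other alternatives its adjusted p ran up to 0.396, reached with no filter on low values. The RNA stood on an estimated 453 to 3650 fragments per library.

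The next smallest unadjusted p belonged to G6pdx, which was higher in cKO in each population, at 13.8 against 11.0, 14.4 against 11.1 and 16.1 against 13.5 FPKM (0.30, SE 0.08, adjusted p = 0.246). Tpi1 (0.39, SE 0.11, adjusted p = 0.261) and Slc16a3 (0.53, SE 0.16, adjusted p = 0.309) were also above WT in each population. The level of Slc16a3 depends on how fragments were assigned to its transcripts, which differ in length. In fresh nTregs its 3.92 FPKM in cKO and 2.47 in WT stood on an estimated 89.4 and 76.2 fragments. Its longest transcript (4335 bases) held 16.0% of the gene's FPKM in cKO and 53.6% in WT there. Ldhb differed most in naive cells, at 33.7 against 19.9 FPKM, and by 0.08 and 0.17 on the log2 scale in fresh and stimulated nTregs (across populations 0.33, SE 0.13, adjusted p = 0.416). None of these passed the test.

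**Figure D4:**
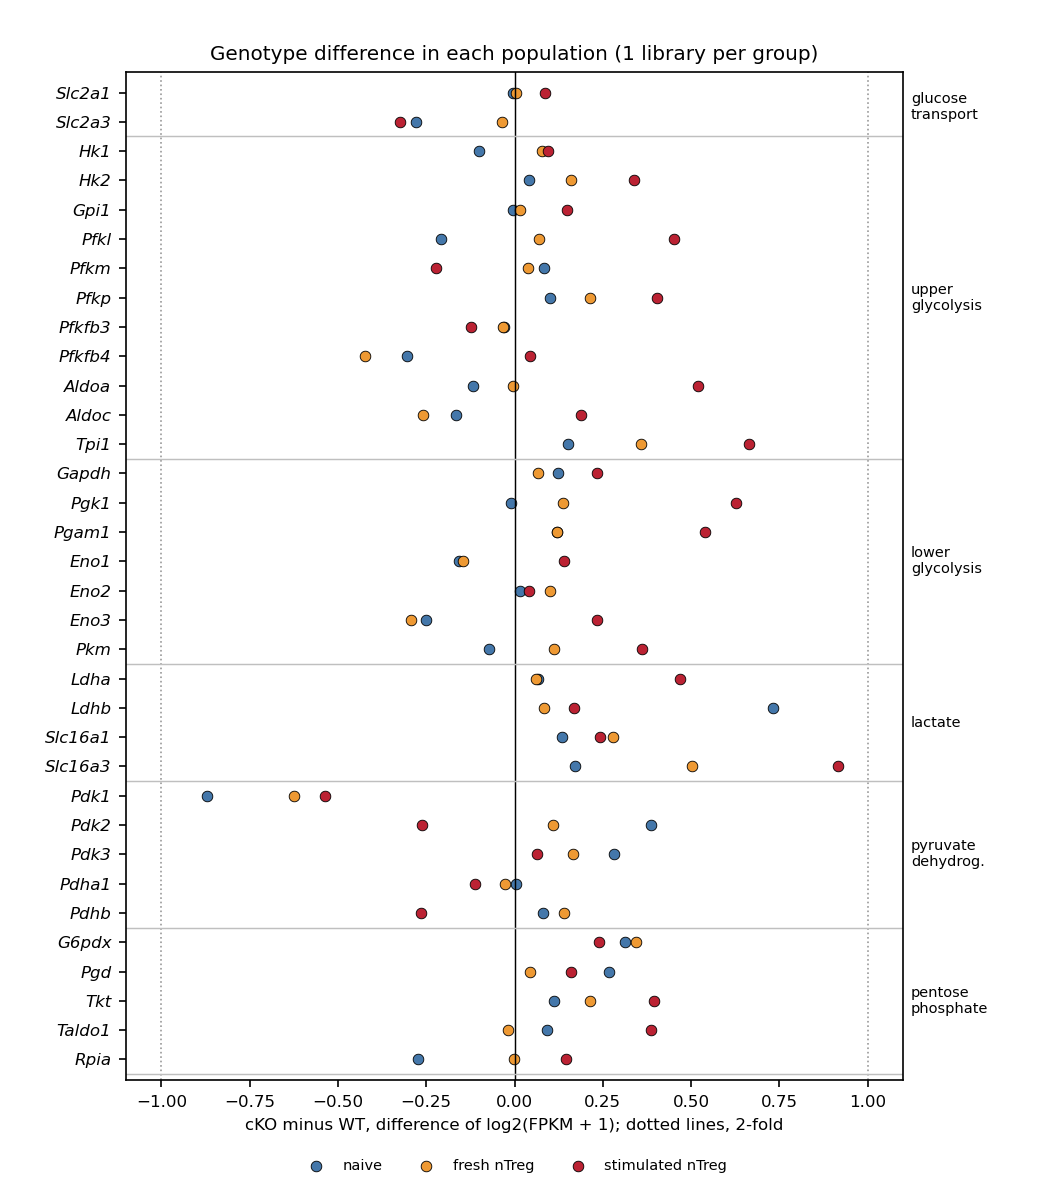
Difference of log2(FPKM + 1) between the cKO and WT library of each population for the 34 genes, 1 library per group; dotted lines mark 2-fold. Most stimulated nTreg points (red) lie right of 0, up to 0.92 for Slc16a3, while Pdk1 lies left of 0 in all 3 populations.

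Within populations no member was 2-fold apart between genotypes on the log2(FPKM + 1) scale, where 2-fold higher and lower were 0.661% and 0.536% of all genes among naive cells, 0.634% and 0.395% among fresh and 1.21% and 0.693% among stimulated nTregs. On plain FPKM Slc16a3 was 2.05 times as high in cKO as in WT stimulated nTregs. Smaller differences were most frequent after stimulation. In stimulated nTregs 26 of 33 members measured were above 0 (background 55.2%), with a median of 0.19 against 0.04 over all genes, and 12 (36.4%, background 16.6%) were at least 1.25-fold higher while 2 (6.06%, background 9.72%) were at least 1.25-fold lower. In naive cells 16 of 30 were above 0 (background 49.8%, median 0.04) and in fresh nTregs 23 of 34 (background 50.0%, median 0.07). At least 1.25-fold higher were 2 members in naive (background 7.16%) and 3 in fresh cells (background 7.55%), and as much lower were 1 (background 5.61%) and 2 (background 5.78%).

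The 12 in stimulated nTregs came from glycolysis, lactate handling and the pentose phosphate pathway. They were Slc16a3 (11.2 in cKO against 5.49 FPKM in WT), Tpi1 (69.6 against 43.6), Pgk1 (219 against 141), Pgam1 (89.9 against 61.6), Aldoa (268 against 187), Ldha (416 against 300), Pfkl (14.9 against 10.6), Pfkp (63.5 against 47.8), Tkt (72.8 against 55.1), Taldo1 (66.7 against 50.8), Pkm (242 against 189) and Hk2 (6.69 against 5.09). On the log2 scale they ran from 0.34 for Hk2 to 0.92 for Slc16a3, and Pdk1 (-0.54) and Slc2a3 (-0.33) were the 2 lower ones. All 12 stayed above 0 under each of 3 other scalings, but with equal FPKM sums only 5 were still at least 1.25-fold higher (background 9.6%), namely Slc16a3, Tpi1, Pgk1, Pgam1 and Aldoa. As many, Pdk1, Slc2a3, Pdhb, Pdk2 and Pfkm, were then at least 1.25-fold lower (background 23.0%). With sums equal over coding transcripts the counts were 7 higher (background 10.2%) and 5 lower (background 19.3%). With median-ratio scaling they were 10 (background 14.4%) and 2 (background 11.8%). By role, all 7 members of lower glycolysis, all 4 of lactate handling and all 5 of the pentose phosphate pathway were above 0 on the deposited scale, whereas with equal FPKM sums Eno1, Eno2 and Rpia fell below it. In the pyruvate dehydrogenase group 4 of 5 were below 0, and Pdk3 joined them with equal FPKM sums.

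These counts rest on 1 library of each genotype and on the scaling. With equal FPKM sums 19 members were above 0 and 15 below in stimulated nTregs, and the medians of the members and of all genes were 0.05 and -0.11. Other gene groups differed between the same libraries: 17 of 18 proliferation genes were above 0, with a median of 0.65, and their summed level was 531 FPKM in WT and 759 in cKO. The list of 7 NK and cytotoxic markers summed to 24.4 in WT and 68.7 FPKM in cKO, nearly all from Nkg7, and the naive list to 482 and 373. Their part in the genotype difference was not tested.

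The response to stimulation was also compared between genotypes, as the cKO change minus the WT change. It was above 0 for 24 of 34 members (background 55.2%), with a median of 0.16 against 0.04 over all genes and 0.02 with equal FPKM sums, and no member reached 2-fold (background 1.82%). The largest were Eno3 (0.53), Aldoa (0.52), Pgk1 (0.49), Pfkfb4 (0.47) and Aldoc (0.45) upward, and Pdhb (-0.40) and Pdk2 (-0.37) downward. With 1 library per group these differences have no test.

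Eno1 needs its near copy beside it. Eno1b is 99.48% identical to Eno1 over 85.6% of the transcript, and the authors' table gives the symbol Eno1 to the Eno1b accession. By accession Eno1 stood at 171, 153, 143, 129, 141 and 156 FPKM and Eno1b at 3.66, 27.4, 3.21, 21.2, 3.37 and 28.9, each cKO library being the higher for Eno1b. Eno1b was called higher in cKO (2.60, SE 0.10, adjusted p = 0.000679). The sum of the pair differed between genotypes by 0.05 in naive, 0.04 in fresh and 0.35 in stimulated cells, against -0.16, -0.14 and 0.14 for Eno1 alone, so the sign for Eno1 in naive and fresh cells depends on how fragments of the pair are assigned.

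The genes around the pathway moved in mixed directions with stimulation, and the counts of each list below stand against 22.5% of all genes called higher and 27.3% called lower. Of the other isozymes and transporters, 10 of 26 were measured and 2 rose and 2 fell: Adpgk, an ADP-dependent glucokinase, from 28.1 and 17.4 to 45.5 and 38.7 FPKM (0.89), the carrier partner Bsg (0.34), and downward the urate and hexose carrier gene Slc2a9 (-0.68) and Bpgm (-0.34). In the other pentose phosphate genes 1 of 7 rose, Prps1 (0.58), which builds the ribose phosphate donor of nucleotides, and 3 fell, Tktl1 (-1.03), H6pd (-1.004) and Shpk (-0.63). Of 8 other genes of pyruvate import and dehydrogenase control, the carrier gene Mpc2 (-0.50) and the phosphatase gene Pdp2 (-0.34) fell and none rose.

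Branches of the pathway also split. Among 13 measured genes of glycogen, hexosamine and glycerol metabolism 4 rose, all but Gpd2 (0.64) in hexosamine synthesis (Gnpnat1 0.81, Uap1 0.63 and Pgm3 0.61), and 2 fell, Gpd1l (-0.70) and Pygb (-0.44). Of 6 genes of gluconeogenesis and glycolytic brakes Pck2 (1.20) and Pcx (0.96) rose and Txnip, which restrains glucose uptake, fell from 190 and 185 to 105 and 94.6 FPKM (-0.91). In the citric acid cycle the fumarase gene Fh1 rose (0.29) and Ogdh fell (-0.48).

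Among 15 regulators of glycolysis 4 rose and 6 fell. Myc stood at 14.9, 23.1, 21.7, 27.1, 93.1 and 87.0 FPKM (1.85, SE 0.16, adjusted p = 0.000503), with both stimulated libraries far above the other 4, and Irf4 rose by 1.21. Foxo1 (-1.13) and Mlxip (-0.80) fell. Hif1a was higher in fresh nTregs than in naive cells, at 59.4 and 57.7 against 129 and 129 FPKM (1.13, SE 0.10, adjusted p = 0.000626), and reached 135 and 161 after stimulation, a difference that did not pass the test (0.19). Of 13 hypoxia-inducible genes outside glycolysis 5 rose with stimulation, among them Bnip3 (1.73) and Vegfa (0.99), and 2 fell, Bhlhe40 (-1.97) and Ankrd37 (-0.82).

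Between naive and fresh cells fewer genes of these lists were called, where 16.5% of all genes were called higher and 14.7% lower. In the order of the lists above, those called higher and lower were 1 and 2 of the other isozymes, none of the other pentose phosphate and pyruvate genes, 2 and 4 of the branches, 1 and 1 of the gluconeogenic and brake genes, 1 and 2 of the citric acid cycle, 2 and 1 of the regulators and 4 and 3 of the hypoxia-inducible genes. Txnip (-0.93) and Bpgm (-0.85) were lower in fresh nTregs and Bhlhe40 (4.62) and Arrdc4 (1.79) higher. Between genotypes Eno1b was the only gene called in these lists, besides the cell cycle gene Top2a (0.72, SE 0.09, adjusted p = 0.0433) among 18 proliferation genes.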

How the data were processed

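The 34 members and the other gene lists were chosen with earlier results of these data known. The tools named in the submitters' processing notes are TopHat, FastQC, Cuffnorm and Cuffdiff, with the mm10 build; their versions are not given in the sources used here. The authors deposited FPKM per RefSeq transcript, already scaled across the 6 libraries, and a count model was not applied because fragment counts are not in the table.

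Transcripts were named by accession with the RefSeq table (GRCm38.p6; 32101 transcripts), then by the deposited symbol (397), and FPKM were summed per gene. The accession was preferred because the deposited symbol Eno1 belongs to the accession of Eno1b; the plan had these 2 namings the other way round. Columns marked YKP were read as YAP cKO by elimination, and every genotype direction rests on this reading.

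limma 3.58.1 (R 4.3.3) was fitted to log2(FPKM + 1) with population and genotype, an intensity trend and 2 residual and 4.02 prior degrees of freedom, over 11224 genes with at least 1 FPKM in 2 or more libraries. Adjusted p under 0.05 (Benjamini-Hochberg) was called. Within a population, genes with at least 1 FPKM in 1 or both libraries were compared without a test. Differences on this scale understate the fold of low genes. Fragment numbers were estimated from the steps between low values, of which 70.0% to 77.7% lay within 0.1 fragment of a whole number, and cover counting error only. Near copies were found with blastn 2.17.0 against annotated transcripts. All members were described; of each other list the counts are given with up to 4 called genes of largest difference, plus near copies and the regulators Hif1a, Myc and Txnip. The alternatives were the pseudocount, the scaling, the filter, the trend, the genotype term, the gene naming and each library left out. The scaling to equal sums over coding transcripts was chosen after seeing the data. Some genes of the other lists are not reported here.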

Additional observations from a re-analysis of the deposited data

Results flagged for a closer look

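Pdk2, which encodes a pyruvate dehydrogenase kinase, differed between genotypes in opposite directions in naive cells and after stimulation. The cKO minus WT difference of log2(FPKM + 1) was 0.39 in naive cells (0.928 in WT and 1.52 FPKM in cKO), 0.11 in fresh nTregs and -0.26 in stimulated nTregs (1.92 and 1.43 FPKM). It stands on an estimated 15 to 30 fragments per library, and with 1 library per group the difference between the populations was not tested.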

How the results depend on the processing

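For stimulated against fresh nTregs, equal FPKM sums gave 22 members higher and 3 lower, 6714 and 1020 of all genes, and a median of 0.59, with Slc2a1 at 0.13 and Taldo1 at 0.19, turned in direction; equal coding sums gave a median of 0.21. With no filter 3946 genes were higher, and without the genotype term 5 members were lower. For fresh against naive cells, equal sums gave 13 members higher, 665 genes lower and a median of 0.24, and equal coding sums 13 members higher, 3002 and 689 genes and a median of 0.25; with no filter 821 genes were lower. The share of calls that were higher was 52.8% there, 80.6% with equal sums and 81.3% with equal coding sums, and for stimulation 45.2%, 86.8% and 62.7%. For cKO against WT, 1 member (Pdk1) was lower with equal sums, equal coding sums, median-ratio scaling or a minimum of 5 FPKM, and 1 was higher with deposited symbols (the Eno1b accession under the symbol Eno1). All-gene calls there, 29 higher and 13 lower as reported, were 13 and 4 with a pseudocount of 5, 3 and 1 with no filter, 11 and 5 with deposited symbols, and 21 lower with equal coding sums. In stimulated nTregs 1 member (Slc16a3) was 2-fold higher with a pseudocount of 0.1. With equal sums 5 were 1.25-fold higher and 5 lower (background 9.6% and 23.0%). With equal coding sums the counts were 7 and 5 (background 10.2% and 19.3%). The median was 0.049 with equal sums and 0.071 with equal coding sums. That of the response difference was 0.015 with equal sums. At 1.25-fold, 2 members were lower in naive cells with a pseudocount of 0.1 (background 7.7%). With a minimum of 5 FPKM 1 was higher in naive (background 5.33%) and 1 lower in fresh cells (background 4.08%). The cause of each of these shifts was not tested.

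With each library left out in turn, a lone library being assumed to vary like the others, stimulation gave 4 to 12 members higher and 4 to 10 lower, and 1341 to 2467 and 1540 to 3041 genes; fresh against naive gave 4 to 10 and 1 to 9 members, and 907 to 2312 and 370 to 2476 genes; cKO against WT gave 0 to 0 members higher and 0 to 1 lower, and 12 to 65 and 4 to 40 genes. The fit already takes population differences within genotype and genotype differences within population; no further replicate block was possible because the labels carry no replicate numbers. Depth limits Hk2, Slc16a3, Aldoc, Eno2, Pdk2 and Pfkfb4, which stand on the fewest fragments of the members.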
